A study of Homo sapiens with 61 samples.

Results

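The genes described here are NFE2L2, which encodes the transcription factor NRF2, and 9 genes of the antioxidant and iron defence that are commonly read as NRF2 targets or partners, HMOX1, NQO1, GCLM, GCLC, TXNRD1, SRXN1, OSGIN1, FTH1 and GPX4. They were taken as a list by symbol, matched to the gene identifiers of both count tables through GENCODE 29, and all 10 were found among 58440 identifiers. RNA was measured in 61 libraries of neurons derived from the established human line WTC11, induced pluripotent stem cells in which the transcription factor NGN2 was switched on by doxycycline. Experiment 1 compared wild type cells (WT) with lines that lack DLK (gene MAP3K12; DLK KO), LZK (gene MAP3K13; LZK KO) or both kinases (DLK LZK double KO, called double KO below), and measured 4 libraries per line and treatment. Experiment 2 used neurons of the same origin that carried the CRISPR interference machinery, which represses transcription at the site a guide RNA (gRNA) points to, with a lentiviral guide against ATF2 (ATF2 gRNA) or JUN (JUN gRNA) or a scrambled one (Control gRNA). Each guide had 5 untreated libraries, and vincristine was measured in 5 libraries of the Control gRNA and JUN gRNA cells and in 4 of ATF2 gRNA. Vincristine, a drug that blocks microtubule assembly, was given at 5 nM for 16 hours on day 14, and untreated cultures received the solvent DMSO. How many clones stand behind a knockout line, and whether replicates were separate differentiations, is not given in the sources used here, so p-values measure only the spread between these libraries.

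NRF2 is held at low levels by KEAP1, which hands it to a CUL3 ubiquitin ligase for degradation. Oxidants and electrophiles block that step, and NRF2 then pairs with small MAF proteins on antioxidant response elements and switches on genes for glutathione synthesis, thioredoxin recycling, quinone and haem breakdown and iron storage. Because the step is on the protein, NFE2L2 RNA and NRF2 activity need not move together, and RNA of the targets is the usual readout. Mature neurons are known for low NRF2 activity compared with astrocytes. DLK and LZK are kinases at the head of a JNK pathway that passes axon damage to the nucleus, where JUN and ATF2 are among the factors phosphorylated.

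A library of experiment 1 held 8.41 to 14.6 M counts in all (M for mega), and one of experiment 2 held 38.9 to 88.4 M. The targeted genes followed their labels. MAP3K12 stood at 28.9% of untreated WT in untreated DLK KO and at 21.6% in double KO. MAP3K13 stood at 32.2% in LZK KO (29.9% in double KO), ATF2 at 0.425% of untreated Control gRNA under its guide and JUN at 3.21%. The perturbations were not separate for JUN, which also stood at 23.7% of Control gRNA in untreated ATF2 gRNA, at 39.5% of WT in DLK KO and at 28.3% in double KO. MAP3K12 was also lower in untreated ATF2 gRNA, at 74.1% of Control gRNA, and in untreated LZK KO, at 83.7% of WT, both called. Vincristine raised JUN in Control gRNA (log2 fold change 1.42 ± 0.10) and its value in ATF2 gRNA was -0.03 ± 0.11. In experiment 1 JUN rose by 1.86 ± 0.14 in WT, 2.04 ± 0.14 in DLK KO and 1.27 ± 0.14 in LZK KO. Its value in double KO was 0.22 ± 0.14 and was not called. All 9 neuron markers were found in every group. Of 7 astroglia markers, GFAP, AQP4 and ALDH1L1 never passed a group mean of 0.723 CPM (counts scaled to a common library total), and the summed level of that list was mostly SLC1A2. Group means of SOX9, SLC1A3 and S100B reached 12.1, 6.16 and 2.57 CPM. The summed level of 7 neural progenitor markers, NES and VIM among them, was 784 to 828 CPM in untreated WT and 1060 to 2102 with vincristine, and 1327 to 1420 against 2562 to 2657 in Control gRNA. In DLK KO it was 236 to 304 against 534 to 647 CPM and in LZK KO 583 to 744 against 1098 to 1299 CPM. Of the genes described here 8 were tested in these lines, and none was called for vincristine, beside 6.53% and 3.88% of all genes. Any link to the progenitor sum was not tested. The sum was 966 to 1089 against 1670 to 1776 CPM under the JUN guide. The ranges overlapped under the ATF2 guide (766 to 840 against 733 to 844 CPM) and in double KO (319 to 329 against 320 to 339 CPM). In experiment 1 group means reached 1529 CPM for NES, 198 CPM for VIM and at most 44.8 CPM for any other marker of the list. For vincristine, 2 of the 7 were called higher and 0 lower in WT, and 3 and 0 in Control gRNA. Over all genes 30.2% and 35.3% were called there. These counts were 2 and 0 in DLK KO (6.53% of all genes), 3 and 0 in LZK KO (3.88%) and 0 and 0 in double KO (0.0658%). Under the ATF2 and JUN guides they were 2 and 0 in each (6.1% and 15.9% of all genes). Untreated, 5 were called higher and 2 lower than WT in LZK KO, although the sum was lower (median log2 fold change 1.25). In double KO these were 4 and 2 (1.68), and in DLK KO 3 and 3 (0.20). Over all genes 33.9% were called for untreated LZK KO, 45.7% for double KO and 34.5% for DLK KO. Untreated, the summed level of 6 pluripotent cell markers was 3.37 to 4.67 CPM in WT. It was higher in DLK KO (11.2 to 14.6), LZK KO (13.6 to 19.1) and double KO (54.0 to 59.9). In experiment 1 group means reached 55.0 CPM for LIN28A and 4.22 CPM for DPPA4, and at most 0.995 CPM for any other marker of this list, POU5F1 and NANOG among them. Of the 6 markers 3 were tested there, and 2 were called higher and 0 lower than WT in each untreated knockout line. The shares over all genes are those given above. Of the 7 astroglia markers 4 were tested there. In untreated LZK KO 3 were called higher and 1 lower than WT (median log2 fold change 0.66). In double KO these were 2 and 0 (0.46), and in DLK KO 1 and 1 (0.25). Of 5 tested in experiment 2, 2 were called higher and 2 lower in untreated ATF2 gRNA (1.67) and 0 in untreated JUN gRNA (-0.02). Over all genes 39.9% and 11.2% were called there. The part of these marker lists in the results below was not tested. Vincristine replicate 4 of WT lay farthest of all libraries from the rest of its group (root mean square distance of 0.52 on the log2 scale), and values without it are given where they bear on a result.

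Promoter sequence, from 250 bases before to 50 after a start site, was found in RefSeq (GRCh38.p14) for 8 of the 10 genes, all but HMOX1 and FTH1, at 12 start sites. The core of the antioxidant response element, TGACNNNGC read on both strands, was in the promoters of GCLM and TXNRD1 only, and 13.3% of the 35116 promoters of this length in the table hold it. Their windows are shown because their letters match the core that NRF2 is known to bind. Each window reaches from 120 bases before to 10 after the start site, on the strand of the gene, with the letters of each match in capitals.
GCLM, chr1:93909421-93909550, minus strand: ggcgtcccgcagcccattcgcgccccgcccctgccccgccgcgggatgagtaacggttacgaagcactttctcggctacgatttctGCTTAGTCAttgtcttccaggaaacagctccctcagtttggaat
TXNRD1, upstream start, chr12:104215659-104215788, plus strand: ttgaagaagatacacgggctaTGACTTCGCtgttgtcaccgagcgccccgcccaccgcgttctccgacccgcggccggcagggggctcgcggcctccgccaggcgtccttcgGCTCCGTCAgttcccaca
TXNRD1, downstream start, chr12:104286912-104287041, plus strand: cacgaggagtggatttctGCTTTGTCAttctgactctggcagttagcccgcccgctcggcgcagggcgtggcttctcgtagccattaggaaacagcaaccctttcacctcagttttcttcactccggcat
The first base of the GCLM match lies at -34 from the start site. Those of TXNRD1 lie at -99 and -8 from the upstream start and at -102 from the downstream one. The AP-1 motif TGANTCA, a site of JUN dimers, was in the OSGIN1 promoter at -97 and in 7.71% of all promoters. That promoter held no match of TGACNNNGC, and other forms of the antioxidant response element were not searched for. The ATF/CREB motif TGACGTCA was in none of the 12 sequences and in 1.85% of all promoters. These are matches of letters, with no measure of binding in these data, and elements farther from a start site were not searched for.

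Levels are given as CPM scaled with TMM factors, and between genes as CPM per kilobase of exon. The genes spanned a wide range, with ferritin far above the rest. In untreated WT the order per kilobase was FTH1 (354 CPM per kilobase), GPX4 (88.5), TXNRD1 (20.1), NFE2L2 (3.57), GCLC (2.02), GCLM (1.55), NQO1 (0.961), SRXN1 (0.632), HMOX1 (0.202) and OSGIN1 (0.0582). The libraries of NQO1 and SRXN1 overlapped on that scale, as did those of HMOX1 and OSGIN1. In untreated Control gRNA the order was FTH1 (372), GPX4 (71.3), TXNRD1 (22.5), NFE2L2 (7.00), GCLC (3.05), NQO1 (1.93), GCLM (1.88), HMOX1 (0.718), OSGIN1 (0.0506) and SRXN1 (0.0126), where NQO1 overlapped GCLM and OSGIN1 overlapped SRXN1. The experiments were scaled separately, so levels are compared only within an experiment. In bulk RNA, fewer cells of a type and less RNA per cell cannot be told apart.

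**Figure D1:**
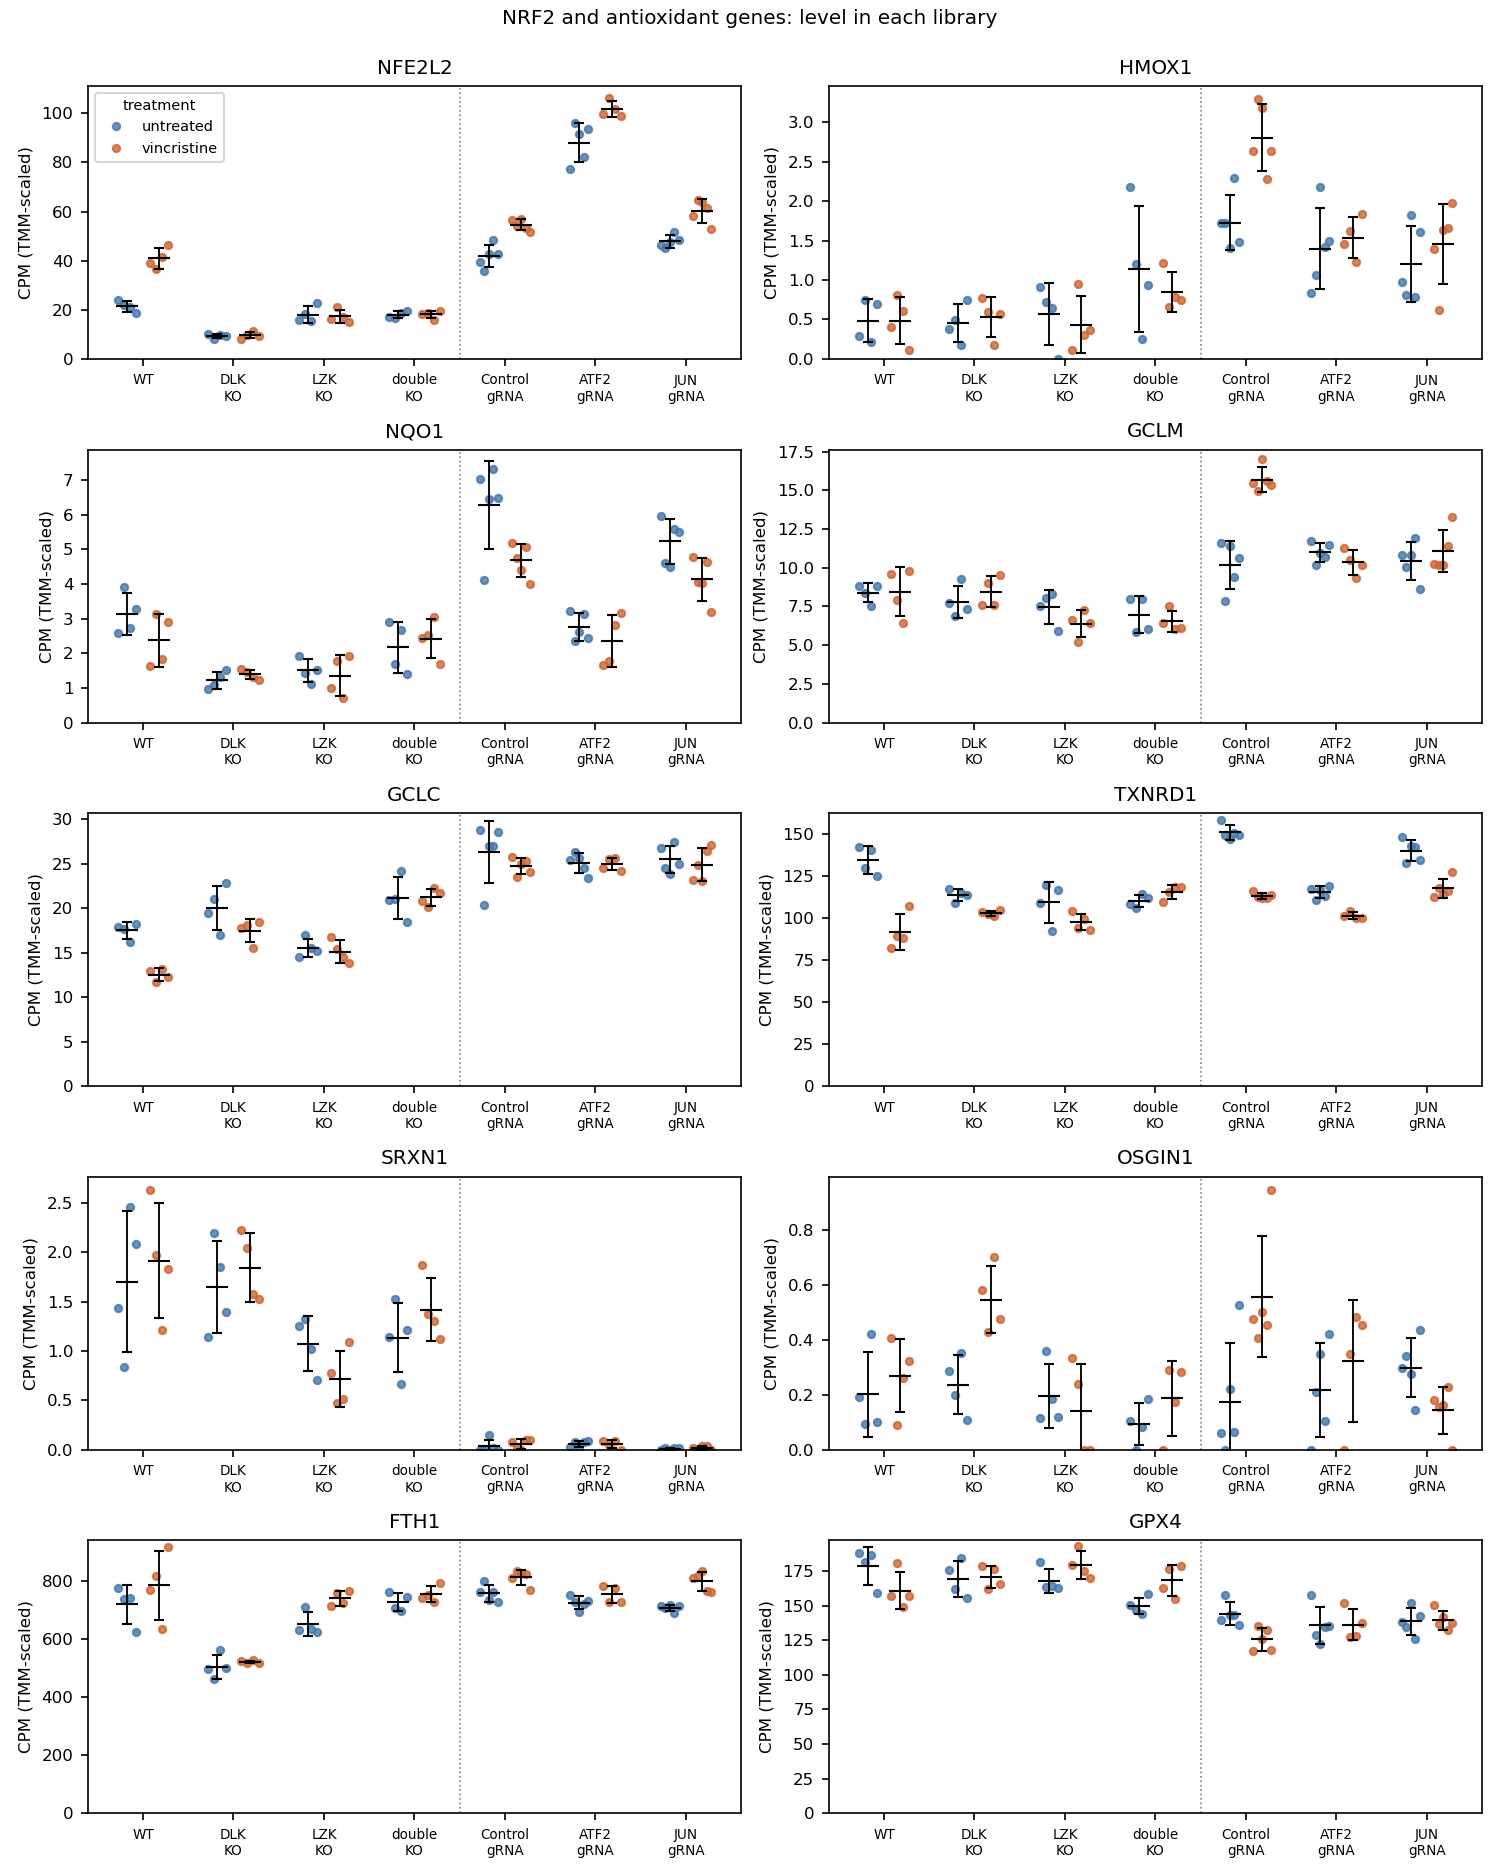
CPM of each of the 10 genes (y axes, each from 0) in every library of 7 lines, untreated and with vincristine, with experiment 1 left of the dotted line and experiment 2 right of it. Points are libraries, bars the mean and SD over 4 or 5 libraries, and the NFE2L2 mean in WT is 21.4 CPM untreated and 41.0 CPM with vincristine, while treated and untreated points overlap in the knockout lines.

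The first question was how vincristine changed these genes in cells with all 4 targeted genes intact. A gene is called here when its p-value by edgeR's quasi-likelihood test, with Benjamini-Hochberg adjustment across the whole tested table, is under 0.05. In WT, NFE2L2 rose and GCLC and TXNRD1 fell, 3 calls among the 8 genes that passed the filter on low counts, where 30.2% of all tested genes were called. In Control gRNA, NFE2L2, HMOX1, GCLM and FTH1 rose and NQO1, TXNRD1 and GPX4 fell, 7 calls among 9, where 35.3% of all genes were called. The median log2 fold change was -0.07 over the 8 genes in WT and 0.10 over the 9 genes in Control gRNA, beside -1.89e-05 and 0.03 over all genes. NFE2L2 and TXNRD1 were the genes called in both WT and Control gRNA, in opposite directions.

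With a kinase removed, none of the 8 genes was called for vincristine. Over all genes the called share was 6.53% for DLK KO, 3.88% for LZK KO and 0.0658% for double KO. For the 8 genes, edgeR's unadjusted p was under 0.05 for GCLC and TXNRD1 (DLK KO), TXNRD1 and FTH1 (LZK KO) and GPX4 (double KO). DESeq2 also called 0 of these genes in each of the 3 lines, and a fit of only the double KO groups called GPX4 there (0.18). Under the ATF2 guide 2 of 9 genes were called, NFE2L2 higher and TXNRD1 lower (6.1% of all genes). Under the JUN guide 3 of 9 were called, NFE2L2 and FTH1 higher and TXNRD1 lower (15.9% of all genes).

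**Figure D2:**
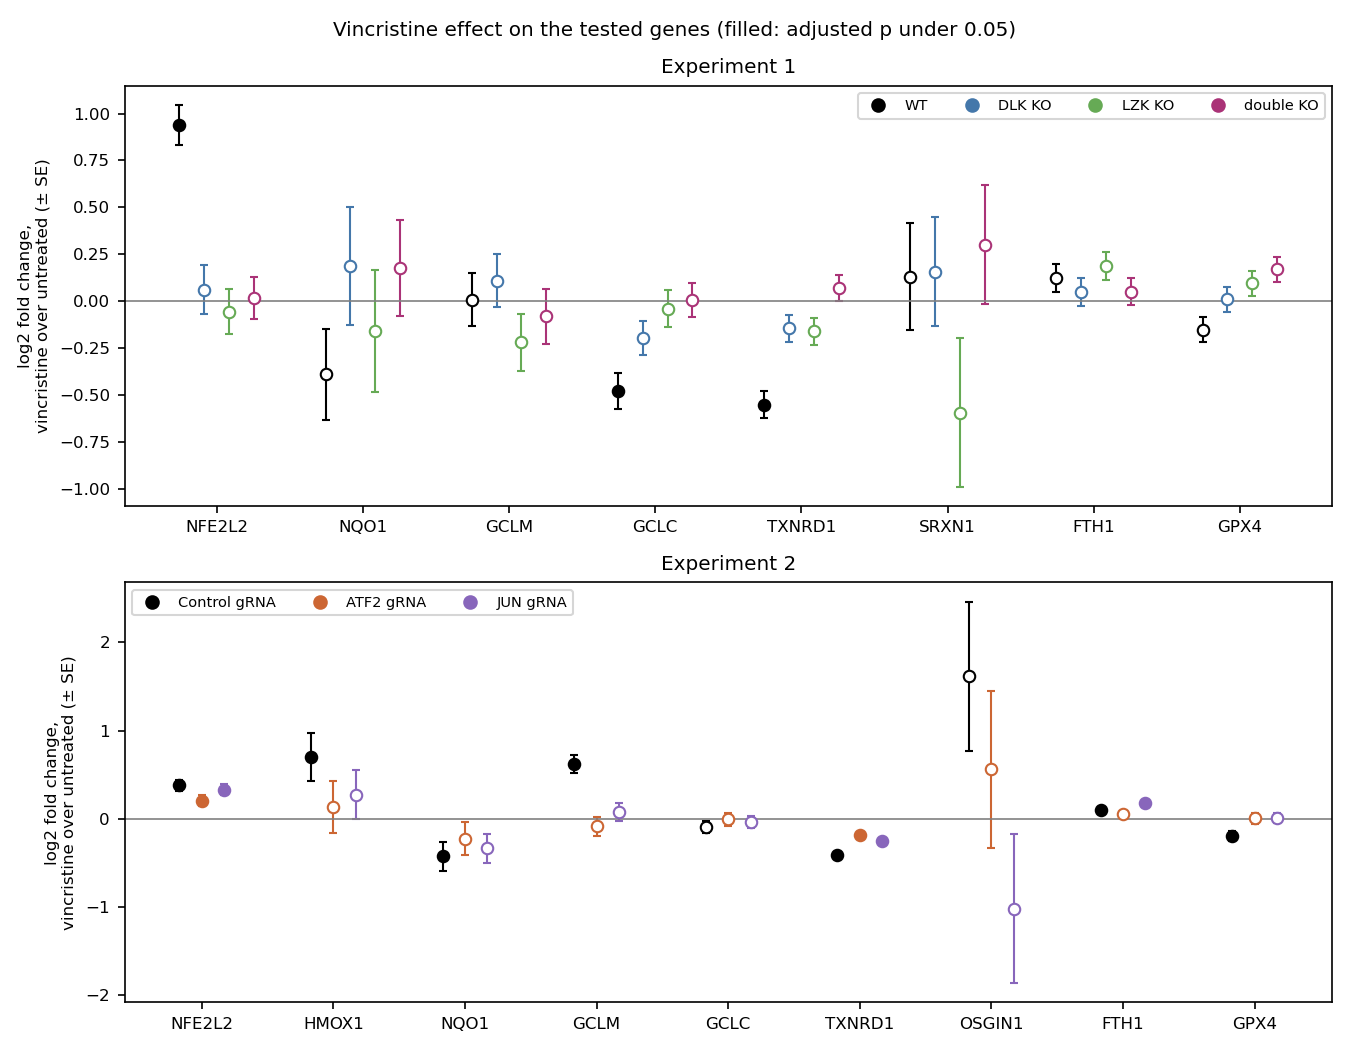
Log2 fold change of vincristine over untreated (y axis, bars ± SE) for the 8 genes tested in experiment 1 and the 9 tested in experiment 2, by line. Filled points are called, and only WT has filled points in experiment 1, with NFE2L2 at 0.94, GCLC at -0.48 and TXNRD1 at -0.55.

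NFE2L2 (ENSG00000116044.15; GRCh38 chromosome 2, 177227595 to 177392697, minus strand) encodes NRF2 itself. The annotated gene overlaps AGPS on the other strand and small non-coding and antisense genes, and the strand setting of the counting is not given in the sources used here. In WT its 4 untreated libraries stood at 23.9, 21.9, 21.1 and 18.6 CPM and its 4 vincristine libraries at 39.0, 36.8, 41.6 and 46.5 CPM. The groups lay well apart, a rise of 1.92-fold (log2 fold change 0.94 ± 0.11 SE, edgeR adjusted p = 9.31e-09, higher in 4 of 4 libraries). Without vincristine replicate 4 the log2 fold change was 0.87.

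NFE2L2 was not called in any knockout line. DLK KO stood at 10.0, 8.18, 9.63 and 9.36 CPM untreated and 8.25, 9.73, 11.3 and 9.53 CPM with vincristine. LZK KO stood at 16.0, 18.4, 15.3 and 22.6 CPM against 16.2, 21.0, 17.1 and 15.0 CPM, and double KO at 16.9, 16.5, 18.9 and 19.5 CPM against 18.4, 18.7, 16.0 and 19.5 CPM. Treated and untreated libraries were interleaved in each of the 3 lines. Log2 fold changes of 0.06 ± 0.13 (DLK KO), -0.06 ± 0.12 (LZK KO) and 0.02 ± 0.11 (double KO) had 95% intervals (normal) that reached no higher than 0.32. The difference from the WT response was called in all 3 lines, at -0.88 ± 0.17 for DLK KO (edgeR adjusted p = 0.000292), -0.99 ± 0.16 for LZK KO (3.55e-05) and -0.92 ± 0.16 for double KO (3.61e-05). The 3 differences share the WT libraries. Among the 8 genes, 2 were called for the DLK KO difference (19.4% of all genes), 3 for the LZK KO one (12.4%) and 4 for the double KO one (19.4%).

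In experiment 2 NFE2L2 rose in Control gRNA and under both guides, with a call under the ATF2 guide that did not hold in all alternatives. Control gRNA stood at 39.6, 35.8, 42.8, 48.4 and 42.8 CPM untreated and 56.6, 54.1, 57.1, 53.3 and 51.8 CPM with vincristine, JUN gRNA at 46.4, 45.0, 47.8, 51.8 and 48.4 CPM against 58.0, 64.7, 64.0, 61.5 and 52.9 CPM. The treated libraries lay above the untreated ones in both lines. The log2 fold change was 0.38 ± 0.06 in Control gRNA (edgeR adjusted p = 2.12e-06) and 0.33 ± 0.06 in JUN gRNA (7.02e-05). ATF2 gRNA rose from 77.3, 95.9, 91.4, 82.1 and 93.6 CPM to 99.7, 106, 102 and 98.8 CPM, also without overlap, at 0.21 ± 0.06 (adjusted p = 0.0451). That call was lost with the replicate number as a block (adjusted p = 0.0819) and with any 1 of its 9 libraries left out other than untreated replicates 2 and 5 (adjusted p of 0.0517 to 0.143). The difference from the Control gRNA response was -0.18 (95% interval -0.35 to 0.00) for ATF2 gRNA and -0.05 (-0.22 to 0.12) for JUN gRNA, and neither was called. The sizes in WT and Control gRNA come from separate experiments, and the difference between them was not tested.

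Before any drug, the level of NFE2L2 differed between DLK KO and WT, lines that also differed in the progenitor and pluripotent marker sums given above. Untreated DLK KO, at 9.30 ± 0.80 CPM (SD, n = 4), lay below all WT libraries, at 21.4 ± 2.20 CPM, a log2 fold change of -1.20 ± 0.12 (edgeR adjusted p = 3.76e-10). LZK KO (18.1 ± 3.30 CPM) and double KO (18.0 ± 1.43 CPM) overlapped WT, and their values of -0.25 were not called (adjusted p = 0.0962 and 0.0674). Without replicate 4 of untreated WT both were called, at -0.32 and -0.31, and double KO also in a fit of only these groups (-0.27). Without its own untreated replicate 4, LZK KO was called at -0.38 (adjusted p = 0.0131) and double KO at -0.31 (0.0395). The genes around NFE2L2 moved with it in DLK KO. Of 64 other tested genes that start within 5 Mb, 35 were called lower and 1 higher there, with a median log2 fold change of -0.84. Over all 18235 tested genes, 3267 were called lower and 3017 higher, and the median was 0.01. AGPS, the overlapping gene, stood at -1.36. ATF2, which lies in the same stretch of chromosome 2, stood at 50.4% of WT in DLK KO. The same neighbours had medians of 0.00 (LZK KO) and 0.07 (double KO). Within 2 Mb the median was -0.69 in DLK KO and 0.30 in double KO, where NFE2L2 itself was at -0.25. What sets the level of the whole stretch in DLK KO was not tested.

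**Figure D3:**
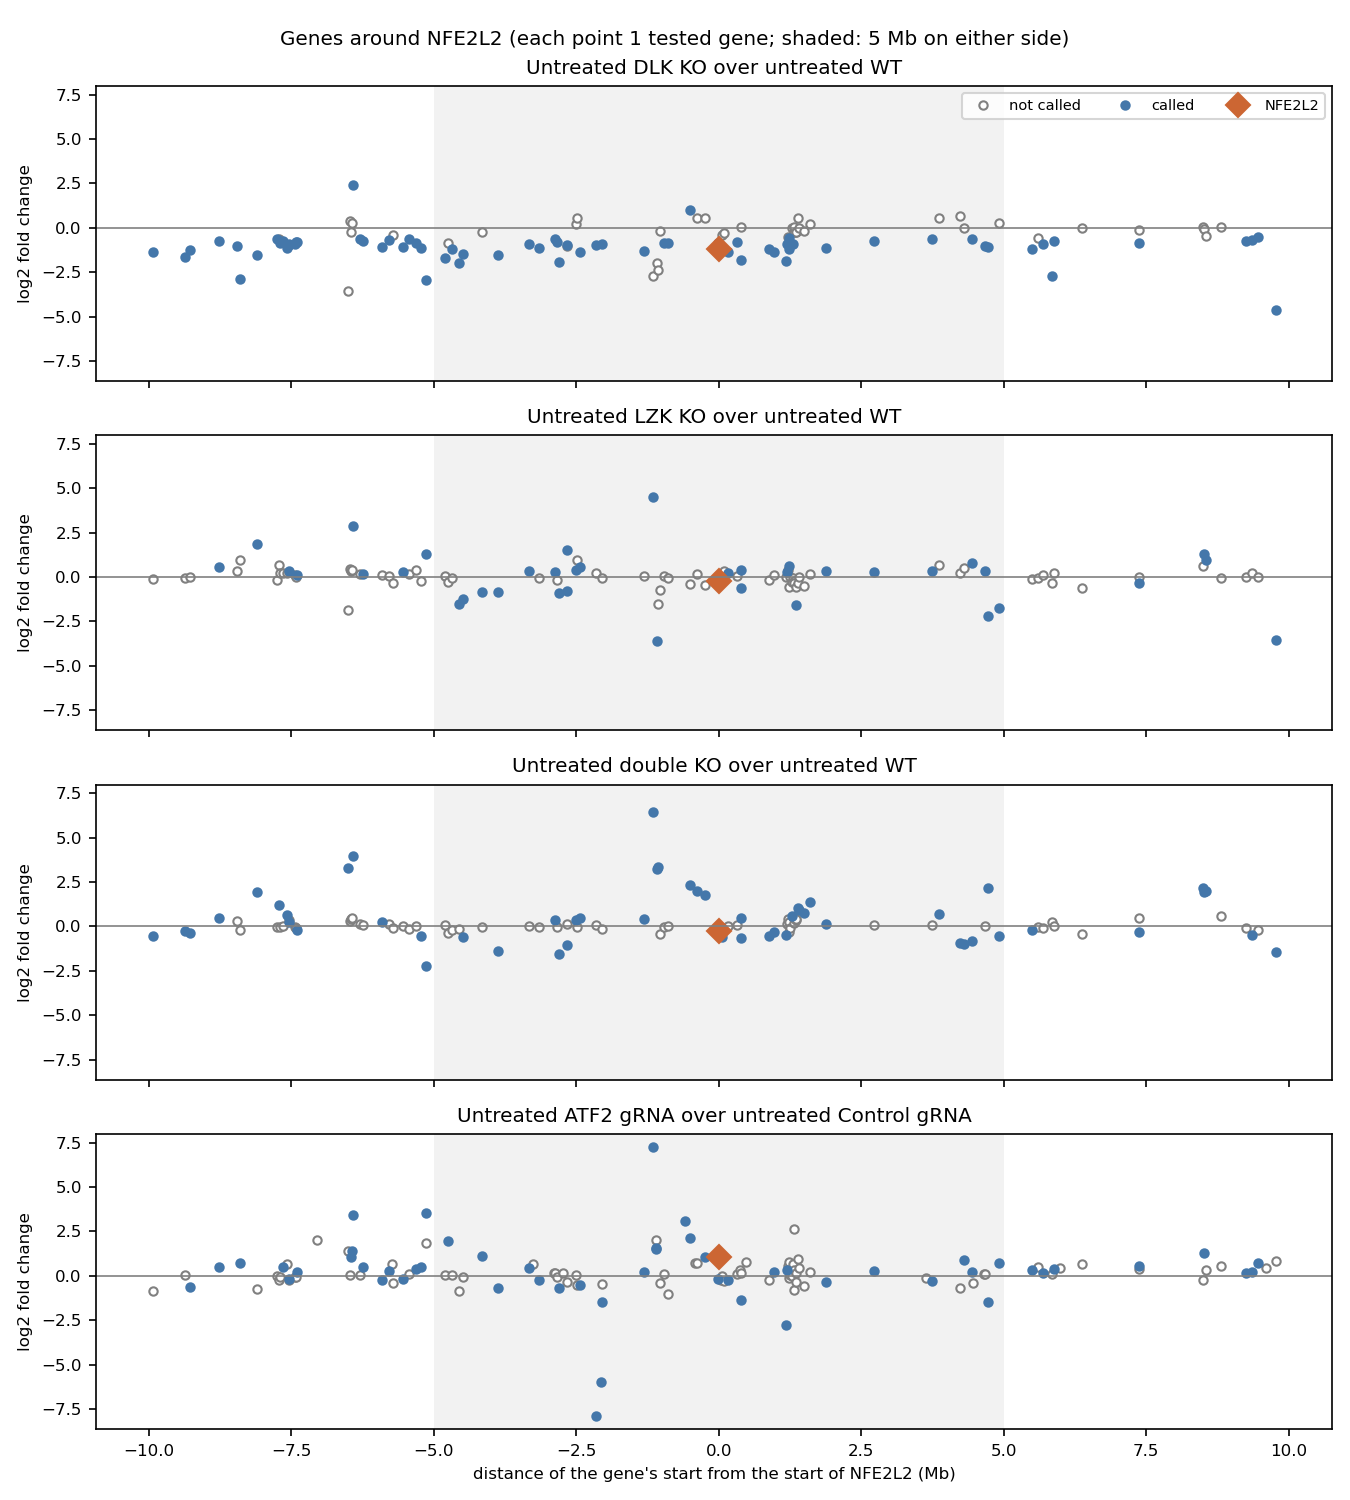
Log2 fold change of each tested gene (y axis) against the distance of its start from the start of NFE2L2 in Mb (x axis) for 4 untreated comparisons, with called genes filled and NFE2L2 as a diamond. In DLK KO most points lie below 0 along the stretch shown, and NFE2L2 sits among them at -1.20, while in ATF2 gRNA it sits at 1.07 with a neighbour median of 0.11.

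The ATF2 guide went the other way. Untreated ATF2 gRNA, at 88.1 ± 8.01 CPM (SD, n = 5), stood above every library of untreated Control gRNA, at 41.9 ± 4.66 CPM, a rise of 2.10-fold (log2 fold change 1.07 ± 0.06, edgeR adjusted p = 2.95e-19). The 77 tested neighbours within 5 Mb had a median of 0.11, with 16 called higher and 14 lower. Over all 20759 tested genes, 4090 were called higher and 4191 lower. The summed level of 6 pluripotent cell markers, mostly LIN28A and DPPA4, was 33.9 to 40.4 CPM in untreated ATF2 gRNA and 10.3 to 13.5 CPM in untreated Control gRNA, and its part in the result was not tested. Under the JUN guide NFE2L2 stood at 47.9 ± 2.56 CPM, 0.19 ± 0.06 above Control gRNA (adjusted p = 0.0359), with overlapping libraries and a call that was lost in a fit of only these groups (0.0577) and without replicates 1, 2 or 5 of Control gRNA or 4 or 5 of JUN gRNA. In all, 3 of 9 genes were called in untreated ATF2 gRNA (39.9% of all genes) and 2 of 9 in untreated JUN gRNA (11.2%). In experiment 1, 4 of 8 were called for untreated DLK KO (34.5%), 2 for LZK KO (33.9%) and 3 for double KO (45.7%).

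**Figure D4:**
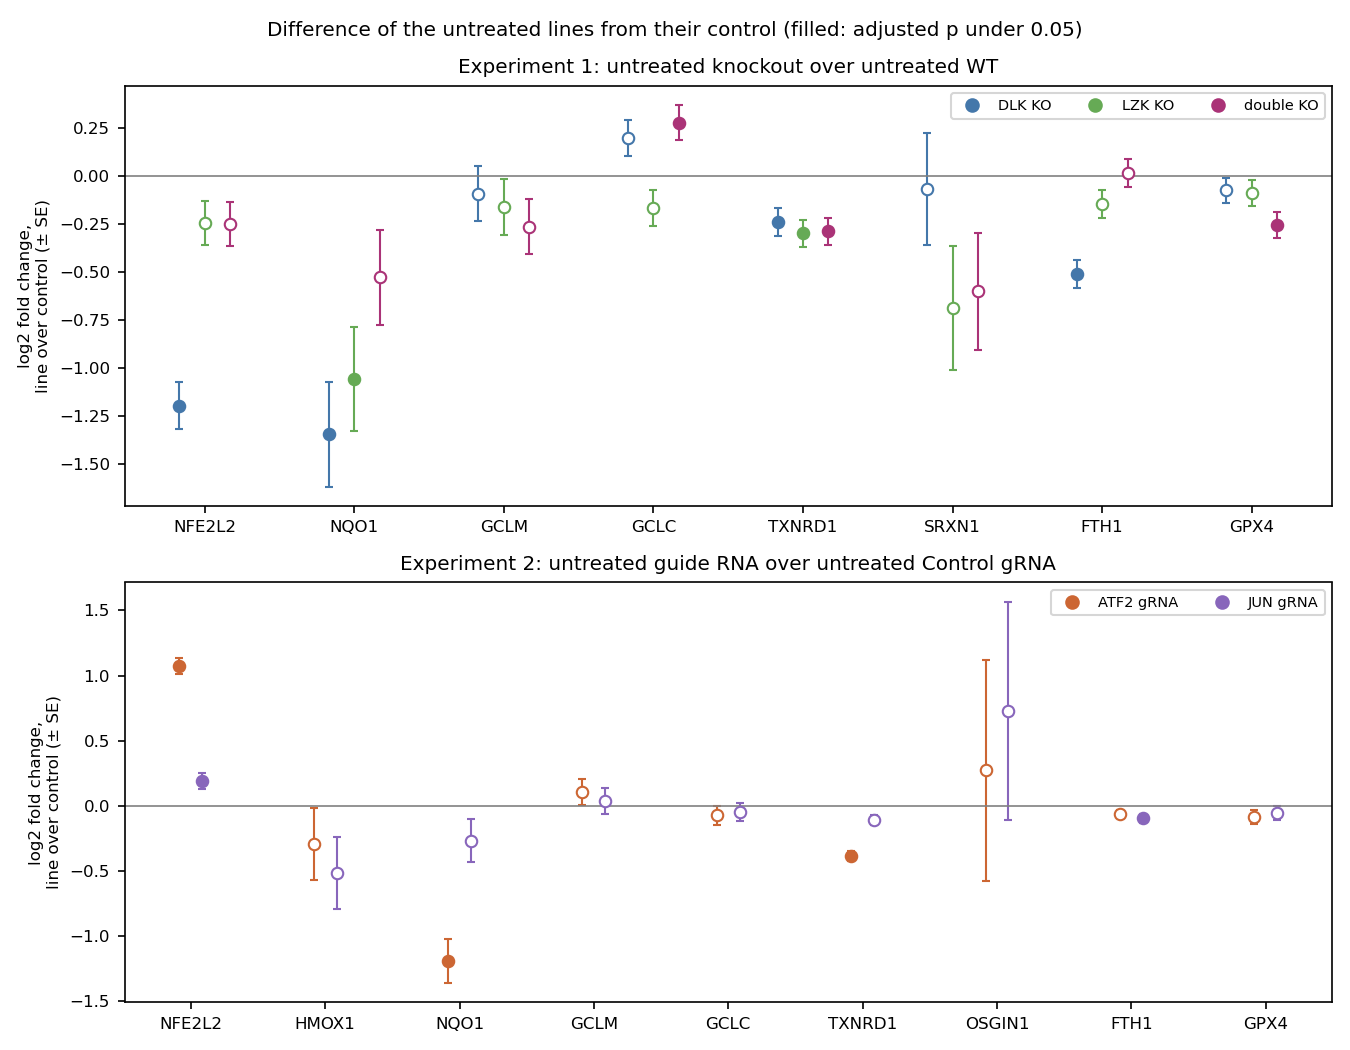
Log2 fold change of each untreated line over its untreated control (y axis, bars ± SE) for the tested genes, called genes filled. TXNRD1 is lower in all 3 knockout lines, at -0.24, -0.30 and -0.29, and NFE2L2 is lower in DLK KO and higher in ATF2 gRNA.

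Of the glutathione pair, GCLM was called for vincristine in Control gRNA only and GCLC in WT only. The difference between the 2 experiments was not tested. GCLM (ENSG00000023909.9; chromosome 1, 93885205 to 93909456, minus strand) encodes the modifier subunit of glutamate-cysteine ligase, the rate-limiting enzyme of glutathione synthesis. In Control gRNA it stood at 11.6, 7.88, 11.4, 9.41 and 10.6 CPM untreated and at 15.5, 15.0, 17.0, 15.6 and 15.4 CPM with vincristine. The groups did not overlap, a rise of 1.54-fold (log2 fold change 0.62 ± 0.10, edgeR adjusted p = 1.40e-06). Under the ATF2 guide it stood at 11.7, 10.2, 10.9, 10.7 and 11.5 CPM against 11.3, 10.5, 9.37 and 10.2 CPM, and under the JUN guide at 10.8, 10.1, 10.9, 11.9 and 8.62 CPM against 10.3, 10.2, 10.2, 11.4 and 13.3 CPM. Treated and untreated libraries overlapped under both guides, at -0.09 ± 0.11 and 0.08 ± 0.10. The difference from the Control gRNA response was -0.71 ± 0.15 for ATF2 gRNA (adjusted p = 0.00024) and -0.54 ± 0.14 for JUN gRNA (0.00446). Beside GCLM, TXNRD1 was the other of 9 genes called for these differences, where 20.6% of all genes were called for ATF2 gRNA and 15.8% for JUN gRNA. The 2 differences share the Control gRNA libraries.

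In WT of experiment 1 GCLM was not called. It stood at 8.79, 8.39, 7.51 and 8.84 CPM untreated and 9.62, 7.91, 6.43 and 9.81 CPM with vincristine, a log2 fold change of 0.01 ± 0.14 (95% interval -0.27 to 0.28). The knockout lines had means of 7.81 ± 1.04 and 8.44 ± 1.00 CPM (SD, n = 4) in DLK KO, 7.44 ± 1.09 and 6.39 ± 0.85 CPM in LZK KO and 6.97 ± 1.18 and 6.53 ± 0.70 CPM in double KO, untreated and treated. The groups overlapped in all 4 lines, and none of the GCLM values, 0.11 (DLK KO), -0.22 (LZK KO) and -0.08 (double KO), was called. The gene rests on 378 counts in the 4 untreated WT libraries and on 2648 in the 5 of untreated Control gRNA.

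GCLC (ENSG00000001084.11; chromosome 6, 53497341 to 53616970, minus strand) encodes the catalytic subunit of the same ligase. In WT it fell from 17.9, 17.7, 16.2 and 18.3 CPM to 13.0, 11.7, 13.2 and 12.3 CPM. All treated libraries lay below the untreated ones, at 71.8% of the untreated level (log2 fold change -0.48 ± 0.10, edgeR adjusted p = 0.000188), and at -0.47 without vincristine replicate 4. LZK KO stood at 14.6, 17.0, 15.5 and 15.2 CPM against 16.7, 15.4, 14.5 and 13.8 CPM, and double KO at 20.9, 21.0, 24.2 and 18.4 CPM against 20.9, 20.1, 22.3 and 21.7 CPM. In LZK KO (-0.04 ± 0.10) and double KO (0.00 ± 0.09) the groups overlapped, and the difference from WT was 0.44 ± 0.14 (adjusted p = 0.0322) and 0.48 ± 0.13 (0.00794). The LZK KO difference was lost without a filter on low counts (adjusted p = 0.134) and, at adjusted p of 0.0523 to 0.0814, without untreated replicates 1, 2 or 4 or vincristine replicate 2 of WT, or untreated replicates 1 or 4 or vincristine replicate 1 of LZK KO. DLK KO went from 19.5, 21.0, 17.0 and 22.8 CPM to 17.8, 18.1, 15.6 and 18.5 CPM with overlap, at -0.20 ± 0.09, and its difference of 0.28 ± 0.13 was not called (0.143). Untreated double KO was above WT (21.1 ± 2.38 against 17.5 ± 0.93 CPM, SD, n = 4), at 0.28 ± 0.09 (adjusted p = 0.0122), a call lost without a filter (0.0519) and without double KO replicate 3 (0.0765). In experiment 2 GCLC was called in no comparison. In Control gRNA its vincristine value was -0.09 (95% interval -0.23 to 0.05), and it was called, at -0.17, without untreated replicate 2, the lowest library of its group at 20.4 CPM.

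TXNRD1 (ENSG00000198431.15; chromosome 12, 104215779 to 104350305, plus strand) encodes the cytosolic thioredoxin reductase, a selenoprotein that keeps thioredoxin reduced. It was called in more comparisons than any other of the 10 genes. In WT it stood at 143, 130, 141 and 125 CPM untreated and 82.2, 89.4, 88.2 and 108 CPM with vincristine, and in Control gRNA at 159, 150, 147, 151 and 150 CPM against 116, 112, 112, 112 and 114 CPM. Treated and untreated libraries were fully apart in both. The log2 fold change was -0.55 ± 0.07 in WT (edgeR adjusted p = 1.01e-07) and -0.42 ± 0.04 in Control gRNA (1.10e-12), and -0.64 in WT without vincristine replicate 4.

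The fall of TXNRD1 was smaller in every line that lacked a kinase or carried a guide against ATF2 or JUN. DLK KO went from 118, 109, 115 and 114 CPM to 104, 102, 101 and 105 CPM, LZK KO from 109, 120, 92.2 and 117 CPM to 104, 94.4, 99.5 and 93.2 CPM, and double KO from 108, 106, 114 and 112 CPM to 110, 116, 119 and 119 CPM. The libraries were apart in DLK KO and overlapped in LZK KO and double KO, and no value was called (-0.15, -0.16 and 0.07). Differences from the WT response were 0.41 ± 0.10 for DLK KO (edgeR adjusted p = 0.00369), 0.39 ± 0.10 for LZK KO (0.00765) and 0.62 ± 0.10 for double KO (1.48e-05). The LZK KO difference was lost in a fit of only these groups (0.0754). Under the ATF2 guide TXNRD1 went from 118, 111, 117, 113 and 119 CPM to 102, 104, 100 and 100 CPM (-0.19 ± 0.04), and under the JUN guide from 148, 133, 143, 142 and 135 CPM to 113, 118, 114, 116 and 127 CPM (-0.25 ± 0.04). Both falls were called without overlap, and both were smaller than in Control gRNA, by 0.23 ± 0.06 (adjusted p = 0.00169) and 0.16 ± 0.05 (0.0279). The JUN gRNA difference was lost without a filter (0.276) and without Control gRNA untreated replicate 1, JUN gRNA untreated replicates 2 or 5 or JUN gRNA vincristine replicate 5 (0.0668 to 0.139).

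The starting level of TXNRD1 also differed between lines. Untreated TXNRD1 was lower than WT in DLK KO (-0.24 ± 0.07, edgeR adjusted p = 0.00712), LZK KO (-0.30 ± 0.07, 0.000961) and double KO (-0.29 ± 0.07, 0.000892), and lower than Control gRNA under the ATF2 guide (-0.39 ± 0.04, 6.76e-12). In all 4 lines every untreated library lay below every library of the control. Under the JUN guide the untreated difference was -0.11 ± 0.04, which missed the threshold (0.0551) and passed it in DESeq2 (0.0188). With vincristine, TXNRD1 stood at 91.8 ± 11.0 CPM in WT and 97.8 ± 5.00 to 116 ± 4.23 CPM in the knockout lines (SD, n = 4).

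SRXN1 (ENSG00000271303.1; chromosome 20, 646615 to 653370, minus strand) encodes sulfiredoxin, which repairs overoxidised peroxiredoxins. It was low in experiment 1 and barely detected in experiment 2. In experiment 1 it gave 486 counts over 32 libraries, with group means of 0.713 to 1.92 CPM, and no value was called, while untreated LZK KO and double KO would be called lower than WT without WT replicate 2 (-0.94 and -0.84). In experiment 2 it gave 63 counts over 29 libraries, 9 of them at 0, and was not tested. A count of 0 in the smallest library of experiment 2 allows up to 0.0771 CPM, counting error only. Another annotated gene, AL121758.1, overlaps SRXN1 on the same strand and held 15 and 28 counts.

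NQO1 (ENSG00000181019.12; chromosome 16, 69706996 to 69726951, minus strand) encodes a quinone reductase and is the classical readout of NRF2 activity. Untreated WT stood at 2.58, 3.91, 2.74 and 3.28 CPM, DLK KO at 0.956, 1.10, 1.33 and 1.51 CPM, LZK KO at 1.93, 1.44, 1.11 and 1.53 CPM and double KO at 2.91, 1.68, 2.68 and 1.40 CPM. Both single knockouts lay below every WT library, at -1.35 ± 0.27 for DLK KO (edgeR adjusted p = 0.000159) and -1.06 ± 0.27 for LZK KO (0.00225). Double KO overlapped WT, at -0.53 ± 0.25 (0.077), and was called in a fit of only these groups (0.0449). Untreated ATF2 gRNA, at 3.22, 2.34, 2.62, 3.14 and 2.43 CPM, lay below Control gRNA, at 7.04, 4.13, 6.45, 7.32 and 6.49 CPM, by -1.19 ± 0.17 (8.50e-08). In untreated ATF2 gRNA NQO1 thus stood at 43.7% of the control level, beside an NFE2L2 level that was 2.10-fold higher. JUN gRNA was not called (-0.27, 0.377). Vincristine lowered NQO1 in Control gRNA to 5.19, 4.75, 4.41, 5.06 and 4.00 CPM, at -0.42 ± 0.16 (0.0388), with overlapping libraries. That call was lost without a filter and with any 1 of the 10 libraries left out other than untreated replicate 2 and vincristine replicates 1 and 4 (adjusted p of 0.0592 to 0.113). The value in WT was -0.39 ± 0.24 and was not called (0.244). With vincristine the means were 1.39 ± 0.14 CPM (DLK KO), 1.36 ± 0.59 CPM (LZK KO) and 2.42 ± 0.56 CPM (double KO; SD, n = 4), with treated and untreated libraries overlapping in each line. No difference in the response of NQO1 between lines was called. The gene rests on 141 counts in the 4 untreated WT libraries.

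HMOX1 (ENSG00000100292.16; chromosome 22, 35380361 to 35394214, plus strand) encodes haem oxygenase 1, which frees iron from haem. It was rare, with 205 counts over 32 libraries in experiment 1, where it was not tested. Group means there ran from 0.433 CPM in LZK KO with vincristine to 1.14 ± 0.80 CPM in untreated double KO, with overlapping libraries. In Control gRNA it stood at 1.72, 1.72, 1.41, 2.29 and 1.49 CPM untreated and 2.63, 3.30, 3.18, 2.28 and 2.63 CPM with vincristine. Of the 5 treated libraries, 4 lay above all untreated ones, and the log2 fold change was 0.70 ± 0.27 (edgeR adjusted p = 0.0398). That call was lost without a filter and with any 1 of the 10 libraries left out other than untreated replicate 4 and vincristine replicates 4 and 5 (adjusted p of 0.0518 to 0.0932). ATF2 gRNA (0.13 ± 0.30) and JUN gRNA (0.27 ± 0.28) were not called, nor were their differences from Control gRNA (-0.57 ± 0.40 and -0.43 ± 0.39).

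OSGIN1 (ENSG00000140961.12; chromosome 16, 83948282 to 83966332, plus strand) encodes a growth inhibitor induced by oxidative stress. It gave 80 counts over the 32 libraries of experiment 1, where it was not tested, and 463 over the 29 of experiment 2. In DLK KO its libraries stood at 0.287, 0.199, 0.354 and 0.108 CPM untreated and 0.582, 0.427, 0.700 and 0.476 CPM with vincristine, without overlap, on 10 and 24 counts. The coding gene AC009119.2, which overlaps it on the same strand, held more, 453 and 1078 counts. In Control gRNA it stood at 0.0623, 0.00, 0.222, 0.0649 and 0.526 CPM untreated and at 0.477, 0.408, 0.501, 0.453 and 0.944 CPM with vincristine, with overlap from 1 untreated library. The log2 fold change of 1.62 ± 0.84 was not called (edgeR adjusted p = 0.143), and was called without that untreated replicate 5 (2.56, 0.0327).

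FTH1 (ENSG00000167996.15; chromosome 11, 61959718 to 61967660, minus strand) encodes the heavy chain of ferritin, which stores iron in oxidised form, and 25 annotated pseudogenes carry its name. Reads from the gene and its copies may have been split or lost in the counting. In untreated DLK KO it stood at 495, 462, 561 and 498 CPM against 774, 736, 740 and 622 CPM in WT. The groups did not overlap, at -0.51 ± 0.07 (edgeR adjusted p = 7.46e-07). FTH1 is not in the stretch around NFE2L2, and its own 224 tested neighbours within 5 Mb had a median of -0.08. In Control gRNA it went from 761, 798, 733, 759 and 726 CPM to 809, 831, 825, 822 and 766 CPM with vincristine, and in JUN gRNA from 712, 704, 715, 688 and 712 CPM to 810, 817, 834, 764 and 759 CPM. LZK KO of experiment 1 went from 629, 711, 633 and 624 CPM to 712, 758, 724 and 764 CPM without overlap, at 0.19 ± 0.07, which was not called (0.181). The rises in Control gRNA and JUN gRNA were small, 0.10 ± 0.03 (0.00849) with overlap and 0.17 ± 0.03 (4.42e-05) without. In WT the value was 0.12 ± 0.07 and was not called (0.217). It was called, at 0.22, without vincristine replicate 3, and was 0.04 without vincristine replicate 4 and 0.06 without untreated replicate 4. Untreated JUN gRNA lay below Control gRNA by -0.10 ± 0.03 (0.0362), a call lost when the counts of the named pseudogenes were added (0.0547), without a filter (0.187) and without replicates 1, 2 or 4 of Control gRNA or 1, 2, 4 or 5 of JUN gRNA.

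GPX4 (ENSG00000167468.16; chromosome 19, 1103926 to 1106791, plus strand) encodes the selenoenzyme that reduces lipid peroxides in membranes and so blocks ferroptosis. In Control gRNA it fell from 140, 158, 143, 143 and 136 CPM to 117, 136, 126, 132 and 118 CPM with vincristine, with the highest treated library just under the lowest untreated one, at -0.20 ± 0.06 (edgeR adjusted p = 0.00597). The value in WT was -0.15 ± 0.07 (0.087), and -0.21, called, without untreated replicate 4 or vincristine replicate 2. Under the ATF2 and JUN guides it was 0.01 in each, and the differences of 0.20 ± 0.08 and 0.21 ± 0.08 from Control gRNA missed the threshold (0.0859 and 0.0809), which both passed without Control gRNA vincristine replicate 2 (0.0491 and 0.046). In double KO the response differed from WT by 0.32 ± 0.10 (0.0147), a call lost without a filter on low counts (0.0502). The treated libraries of double KO stood at 163, 177, 155 and 179 CPM. Untreated double KO stood at 150, 147, 144 and 158 CPM, below WT at 188, 182, 187 and 159 CPM, by -0.26 ± 0.07 (0.00194).

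The rest of the pathway was followed through 4 lists of further genes. In the list of 13 NRF2 regulators, 6 rose and 2 fell in WT and 8 rose and 3 fell in Control gRNA, where 15.7% and 17.1% of all genes were called higher. Among them were the small MAF partners MAFF (0.71 ± 0.18 in WT, 0.76 ± 0.18 in Control gRNA) and MAFK (0.56 ± 0.20 in WT). BACH2, a repressor at the same elements, rose by 0.64 ± 0.08 in WT and 0.76 ± 0.05 in Control gRNA. SQSTM1, which sequesters KEAP1, had the highest value of the list in Control gRNA at 0.84 ± 0.05. RBX1, a ligase subunit, fell by 0.46 in WT and 0.26 in Control gRNA, and GSK3B, a kinase that marks NRF2 for degradation, by 0.19 and 0.24. DPP3, which binds KEAP1, fell by 0.41 in Control gRNA. Calls for this list were 3 higher in DLK KO, 2 higher in LZK KO and 0 with both kinases lacking (2 at an unadjusted edgeR p under 0.05). Over all genes the called share was 6.53%, 3.88% and 0.0658% in these lines. The list had 4 called higher under the ATF2 guide, and 2 higher and 2 lower under the JUN guide, beside 6.1% and 15.9% of all genes called.

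Of 22 other NRF2 targets tested, 2 rose and 10 fell in WT and 3 rose and 9 fell in Control gRNA, where 14.5% and 18.1% of all genes were called lower. The median log2 fold change was -0.24 in WT and -0.22 in Control gRNA. SLC7A11, the cystine transporter that feeds glutathione synthesis, was the exception in size, with 3.75 ± 1.51 CPM in untreated WT and 127 ± 19.7 CPM with vincristine (log2 fold change 5.11 ± 0.18), and 31.7 ± 6.47 against 105 ± 7.40 CPM in Control gRNA (1.73 ± 0.15). EPHX1, an epoxide hydrolase, rose by 0.72 ± 0.09 and 0.49 ± 0.04, and ME1, which makes NADPH, by 0.70 ± 0.17 in Control gRNA. TXN, the substrate of TXNRD1, fell by 0.62 in WT, with PIR (-0.59) and UGDH (-0.48), and PRDX1, a peroxiredoxin, by 0.51 in Control gRNA, with UGDH (-0.41). In the kinase knockouts 2 of 22 rose without DLK, 1 without LZK and 0 without both, and 0 fell, beside 6.53%, 3.88% and 0.0658% of all genes called. At an unadjusted edgeR p under 0.05 the counts were 4 higher and 1 lower, 2 higher and 2 lower, and 0. Under the guides 1 rose and 5 fell for ATF2 and 0 rose and 6 fell for JUN, beside 6.1% and 15.9% of all genes called.

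Of 18 further antioxidant enzymes, 0 rose and 5 fell in WT, beside 14.5% of all genes called lower there, led by PRDX4 (-0.75 ± 0.13), HMOX2 (-0.60 ± 0.08) and GPX1 (-0.32 ± 0.12). In Control gRNA 2 rose, TXNRD3 (0.72 ± 0.16) and GLRX2 (0.49 ± 0.09), and 10 fell, beside 18.1% of all genes called lower, led by SOD2 (-0.50 ± 0.04), HMOX2 (-0.41 ± 0.06) and PRDX4 (-0.40 ± 0.07). In the 3 knockout lines 0 of the 18 were called by edgeR, with 3, 3 and 0 at an unadjusted p under 0.05 for DLK KO, LZK KO and double KO. Over all genes the called share was 6.53%, 3.88% and 0.0658% there. Under the ATF2 guide 2 fell and under the JUN guide 6, where 6.1% and 15.9% of all genes were called. In the list for glutathione, iron and lipid peroxide handling, CHAC1, which degrades glutathione, and SLC3A2, the partner chain of SLC7A11, rose by 2.88 ± 0.12 and 1.46 ± 0.07 in WT and by 0.56 ± 0.08 and 0.89 ± 0.05 in Control gRNA. They were the 2 called higher in each. LPCAT3 and TFRC, the transferrin receptor, were the lowest called in both, at -1.27 and -0.71 in WT and -0.95 and -0.78 in Control gRNA. GGCT (-0.71 in WT) and ACSL4 (-0.59 in Control gRNA) followed, of 4 of 12 lower in WT and 6 of 13 in Control gRNA.

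**Figure D5:**
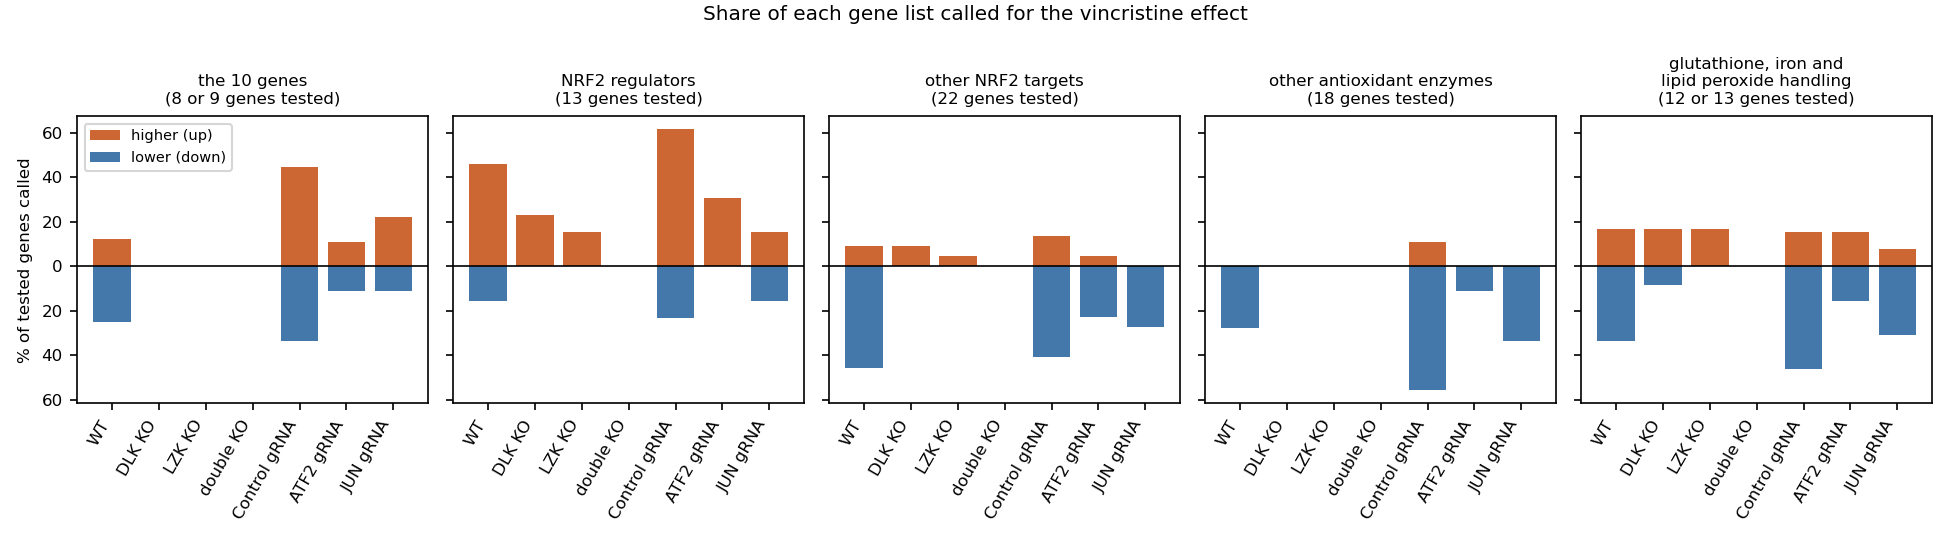
Percent of the tested genes of each list called higher (above 0) or lower (below 0) for vincristine, by line, for the 10 genes and 4 further lists. In the list of other NRF2 targets the bars for lower calls stand for 10 of 22 genes in WT and 9 of 22 in Control gRNA, and double KO has no bar in any list.

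Across the 14 group means, centred within each experiment, the 7 genes tested in both experiments did not share 1 pattern. Pearson correlations between pairs ran from -0.53 (NFE2L2 and GCLC) to 0.68 (NFE2L2 and FTH1), with NQO1 and TXNRD1 at 0.66. Among 12338 genes with a mean log2 CPM of at least 1 in both experiments, the patterns most like that of NFE2L2 were those of HOMER1 (0.94), CCNL2 (0.92) and GATM (0.91). The closest to NQO1 was PITPNM1 (0.96), to GCLM GAS2 (0.87), to GCLC SELENOS (0.96), to TXNRD1 BNIP3 (0.96), to FTH1 DUSP19 (0.98) and to GPX4 GGH (0.88). The 3 genes closest to FTH1, DUSP19 among them, all lie on chromosome 2, as NFE2L2 does. The correlations describe 14 means that share lines, treatments and libraries.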

How the data were processed

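The authors deposited 1 table of counts per experiment, whole numbers of reads per gene for each library, with each gene's coordinates and exon length. The columns are those of featureCounts output, per the file headers. The submitters' processing notes name cutadapt 3.4, STAR, featureCounts of Subread 2.0.1 and GRCh38. Libraries were poly(A)-selected with a strand-marking kit, per the labels' protocols. How multi-mapped reads, strand and duplicates were handled is not given in the sources used here. The deposited exon length per gene (another unit, bases) was used only for CPM per kilobase.

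Of 58440 identifiers, 58320 matched a symbol through GENCODE 29. Counts were analysed in R 4.3.3 with edgeR 4.0.16 (quasi-likelihood test, robust, TMM factors, genes filtered by group, 1 mean per group), in a separate fit for each experiment, with 18235 and 20759 genes tested and p-values adjusted over all of them by Benjamini and Hochberg. TMM factors ran from 0.9191 to 1.082 and from 0.9522 to 1.059. DESeq2 1.42.0 was an alternative, beside other factors, other filters, a replicate block, fits of only the groups compared, FTH1 pseudogene counts, a neighbour window of 2 Mb in place of 5 Mb and leaving out each library. Tables and figures were made with Python 3.11.15, pandas 2.3.3 and matplotlib 3.10.9. Groups come from the sample labels. Named list genes are those with the largest called changes in each direction, up to 3 per list, in WT and Control gRNA, and likeness names the closest gene per member and 3 for NFE2L2. One gene that the rule names is not reported here. The members and lists were chosen with earlier results of these data known.

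Totals of 8.41 to 14.6 M counts (median 10.3) in experiment 1 and of 38.9 to 88.4 M (median 53.5) in experiment 2 set the precision, which is lower in experiment 1. The zero-count limit is 3 counts. None of the 104 replicate pairs had a chi-square per degree of freedom under 1.2, so each library counted once. The fit was tested on simulated data, where 200 genes had a 2-fold change, and recovered 87.5% for WT and 94% for Control gRNA, with 9 and 8 false calls among 17624 and 20252 genes, and 73.5% and 82% for the differences of DLK KO from WT and of ATF2 gRNA from Control gRNA.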

Additional observations from a re-analysis of the deposited data

Results flagged for a closer look

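In 5 of 118 gene and group combinations 1 library stood apart from the others of its group by Dixon's ratio at the 95% level, where chance gives about 1 in 20. Untreated replicate 2 of Control gRNA was low for NQO1 (4.13 CPM, the others 6.45 to 7.32) and for GCLC (20.4 CPM, the others 27.0 to 28.8). Vincristine replicate 5 of Control gRNA was high for OSGIN1 (0.944 CPM, the others 0.408 to 0.501). Untreated LZK KO held a high replicate 2 for FTH1 (711 CPM, the others 624 to 633) and a high replicate 1 for GPX4 (181 CPM, the others 163 to 164).

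The response to vincristine differed between lines, by an interaction term in edgeR, for 5 of the genes. Over all genes the called share was 19.4% for DLK KO, 12.4% for LZK KO and 19.4% for double KO. It was 20.6% for ATF2 gRNA and 15.8% for JUN gRNA. Differences from WT on the log2 scale were -0.88 (DLK KO), -0.99 (LZK KO) and -0.92 (double KO) for NFE2L2, and 0.41, 0.39 and 0.62 for TXNRD1. For GCLC they were 0.44 for LZK KO and 0.48 for double KO, and for GPX4 0.32 in double KO. Differences from Control gRNA were -0.71 for ATF2 gRNA and -0.54 for JUN gRNA in GCLM, and 0.23 and 0.16 in TXNRD1. Calls of GCLC and TXNRD1 in LZK KO, GPX4 in double KO and TXNRD1 in JUN gRNA were lost in some alternatives, as given above.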

How the results depend on the processing

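Called results of the 10 genes kept their direction in all alternatives run. They kept their call in 245 of 256 values under other settings and in 441 of 486 with 1 library left out. Some results that were not called changed sign. In WT the GCLM value was -3.43e-05 with RLE factors, -0.00422 without a filter, -0.00441 with only the groups compared and -0.000393 in DESeq2. The GCLC value in ATF2 gRNA was 0.0125 with RLE factors and in DESeq2, 0.0134 with a filter at 1 CPM and 0.00392 with only the groups compared. Without a filter GCLC was at -0.00688 in double KO and GPX4 at -0.00643 in JUN gRNA. FTH1 in untreated double KO was at -0.00371 with only the groups compared.

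With 1 library left out, vincristine values ranged from -0.0719 to 0.127 for GCLM and -0.0832 to 0.392 for SRXN1 in WT; from -0.0272 to 0.123 for NFE2L2 and -0.0375 to 0.0432 for GPX4 in DLK KO; and from -0.159 to 0.0679 for NFE2L2, -0.377 to 0.0678 for NQO1 and -0.0897 to 0.0058 for GCLC in LZK KO. In double KO they ranged from -0.0254 to 0.0804 for NFE2L2 and -0.0473 to 0.0762 for GCLC, in ATF2 gRNA from -0.00327 to 0.346 for HMOX1, -0.0289 to 0.0148 for GCLC and -0.0445 to 0.0652 for GPX4, and in JUN gRNA from -0.0227 to 0.0435 for GPX4. Differences from the WT response ranged from -0.0212 to 0.19 for GCLM, -0.242 to 0.238 for SRXN1 and -0.172 to 0.0070 for FTH1 in DLK KO, from -0.0235 to 0.149 for FTH1 in LZK KO, and from -0.0926 to 0.393 for SRXN1 and -0.159 to 0.011 for FTH1 in double KO. Untreated differences ranged from -0.294 to 0.203 for SRXN1 in DLK KO, -0.0429 to 0.0625 for FTH1 in double KO, -0.101 to 1.21 for OSGIN1 in ATF2 gRNA and -0.0386 to 0.103 for GCLM in JUN gRNA. The full-data values of these results reached from -0.16 (NQO1 in LZK KO) to 0.27 (OSGIN1 in untreated ATF2 gRNA).

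Counts of called genes among the 10 moved as follows. A fit of only the groups compared called 1 for vincristine in double KO (0 in the full fit), 5 in untreated double KO (3) and 1 in untreated JUN gRNA (2). Without a filter 1 was called for the JUN gRNA difference in response (2) and 1 in untreated JUN gRNA. With 1 library left out the counts ranged from 2 to 4 in untreated LZK KO, 1 to 2 for vincristine in ATF2 gRNA, 1 to 3 for the JUN gRNA difference and 0 to 2 in untreated JUN gRNA. Over all genes a fit of only the groups compared called 3529 in place of 5498 in WT, 3207 in place of 1190 in DLK KO, 271 in place of 707 in LZK KO, 1028 in place of 12 in double KO, 1082 in place of 2262 for the LZK KO difference and 768 in place of 1267 in ATF2 gRNA. Leaving out 1 of the 8 DLK KO libraries gave 598 to 981, and leaving out LZK KO untreated replicate 2 gave 452. The cause was not tested.

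Replicate numbers are shared between untreated and vincristine libraries, but the labels tie them to no batch and same-numbered libraries did not deviate together in every pair. With the replicate number as a block, 141 of 143 gene values kept direction and call, NFE2L2 in ATF2 gRNA lost its call (0.19), which left 1 called gene there, and GCLC in ATF2 gRNA was at 0.00333. Depth limits HMOX1 and OSGIN1 in experiment 1 and SRXN1 in experiment 2, which were not tested, and NQO1, SRXN1 and OSGIN1 where they were.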

Other observations

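The wider lists were also compared between untreated lines. Over all genes the called share was 34.5% for DLK KO, 33.9% for LZK KO, 45.7% for double KO, 39.9% for ATF2 gRNA and 11.2% for JUN gRNA, in both directions together. Of 22 other NRF2 targets, 2 were called higher and 11 lower in DLK KO (median log2 fold change -0.33), 3 and 10 in LZK KO (-0.18) and 3 and 11 in double KO (-0.38), and under the guides 3 and 8 for ATF2 (-0.09) and 0 and 3 for JUN (-0.01). Medians over all genes were at most 0.02. Of 18 other antioxidant enzymes, 0 were called higher and 6 lower in DLK KO, 0 and 7 in LZK KO and 1 and 9 in double KO, 2 and 8 under the ATF2 guide and 1 and 5 under the JUN guide. Of 13 regulators of NRF2, 0 and 6, 3 and 3 and 2 and 6 were called in the knockout lines, 3 and 8 under the ATF2 guide and 1 and 0 under the JUN guide.

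SLC7A11, the cystine transporter, kept part of its response in the single knockouts, where none of the 8 tested genes was called. Its vincristine log2 fold change was 1.64 ± 0.23 in DLK KO (7.05 against 2.25 CPM) and 3.32 ± 0.27 in LZK KO (10.2 against 1.01 CPM), both called by edgeR, and 0.22 ± 0.34 in double KO (1.52 against 1.31 CPM). CHAC1, which degrades glutathione, was at 0.75 ± 0.14, 1.05 ± 0.15 and -0.27 ± 0.20 in the same lines. Under the guides SLC7A11 was at 0.70 ± 0.15 for ATF2, called, and 0.30 ± 0.14 for JUN, not called, and both differed from Control gRNA, by -1.03 ± 0.21 and -1.44 ± 0.20.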
